A study of Mus musculus with 15 samples.

Results

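The genes described here are 10 genes of endoplasmic reticulum (ER) chaperones and of the unfolded protein response (UPR), namely Hspa5, Hsp90b1, Dnajb9, Dnajc3, Herpud1, Sdf2l1, Xbp1, Pdia4, Calr and Edem1. They were chosen by gene name, as targets of the transcription factors ATF6 and XBP1, and make up 10 of the 20207 genes in each table. Their transcripts were quantified by mRNA-seq in mouse embryonic fibroblasts of the NIH3T3 line. The cells stably carried DD-sfGFP, a superfolder GFP fused to the L106P destabilizing domain (DD) of the FKBP protein. All groups carried DD-sfGFP, had been sorted for high GFP and were grown with Shield-1 (S1), the ligand that keeps the DD folded. In the 5 control samples S1 stayed in the medium. In the other groups S1 was withdrawn with a purified FKBP protein, which unfolds the DD in the cytosol and nucleus, and cells were collected after 45 min (3 samples), 135 min (3 samples) or 405 min (4 samples). The comparisons ask whether genes of the ER, a compartment that does not hold the unfolded domain, changed after S1 withdrawal.

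The UPR is the ER's own quality control pathway. The sensors IRE1 (gene Ern1), PERK (gene Eif2ak3) and ATF6 sit in the ER membrane and respond when unfolded proteins occupy the chaperone BiP. IRE1 splices the Xbp1 mRNA, ATF6 is cut by the proteases encoded by Mbtps1 and Mbtps2, and the resulting transcription factors bind ER stress elements together with the CCAAT-binding factor NF-Y. In fibroblasts, which secrete collagen, the ER folding machinery is made in quantity without stress.

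The promoters of the 10 genes were searched for the letters of these elements, to show the sequences behind the choice of genes. They are the elements that ATF6 and XBP1 bind, so their presence among targets of these factors is a description and not independent of the choice. Promoters were RefSeq windows of 250 bases before to 50 bases after the gene start (mouse build GRCm38.p6), and all 10 genes had one. The ER stress element (ERSE, letters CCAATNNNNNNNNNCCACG, either strand) was found in 4 of the 10 genes and in 39 of 32851 promoters overall (0.119%). ERSE-II (letters ATTGGNCCACG) was found in 1 of the 10 and in 12 of 32851 promoters (0.0365%). The UPR element core TGACGTGG was found in none of the 10 and in 222 of 32851 promoters (0.676%). ERSE holds the letters CCAAT and CCACG, and ERSE-II holds CCACG and, on the other strand, CCAAT, so these shorter motifs overlap them. CCAAT was present in 9 of the 10 genes and in 37.4% of all promoters, and CCACG in 9 of the 10 and in 32.8%. The windows that hold an ERSE or ERSE-II are given on the strand of the gene, 5′ to 3′, with the element in capitals and its position counted from the gene start.
Hspa5 (chr2:34772010-34772058, + strand, element at -65 to -47): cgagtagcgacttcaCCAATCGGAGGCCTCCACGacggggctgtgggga
Hsp90b1, upstream element (chr10:86705623-86705671, - strand, -212 to -194): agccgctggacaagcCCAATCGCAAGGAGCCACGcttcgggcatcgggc
Hsp90b1, downstream element on the other strand (chr10:86705518-86705566, - strand, -107 to -89): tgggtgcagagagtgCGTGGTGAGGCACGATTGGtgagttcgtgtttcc
Dnajc3 (chr14:118937812-118937860, + strand, -105 to -87): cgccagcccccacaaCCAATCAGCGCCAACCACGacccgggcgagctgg
Calr, element on the other strand (chr8:84847060-84847108, - strand, -162 to -144): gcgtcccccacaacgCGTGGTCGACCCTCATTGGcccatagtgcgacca
Herpud1, ERSE-II (chr8:94386362-94386402, + strand, -52 to -42): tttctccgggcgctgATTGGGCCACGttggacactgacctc
Pdia4, Dnajb9, Sdf2l1, Xbp1 and Edem1 held none of the 3 elements in these windows. A match is a description of letters in the window and not evidence of binding in these cells. All 10 genes are annotated as protein-coding, with 3 (Dnajb9, Sdf2l1) to 16 (Hsp90b1) blocks of exons.

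Total counts ranged from 6652539 to 30258404 per sample, and all 10 genes had at least 1 count in every sample, as did 10276 genes of the table, which were the genes tested. The samples fell into 2 library sets by the trend of expression with transcript GC content. Set 2 held control replicate 2, replicate 3 of 45 min and replicates 1, 2 and 4 of 405 min, with slopes of 0.318 to 0.736 log2 units per 10 GC percentage points, and set 1 held the other 10 samples (-0.717 to 0.0309), all 135-min samples among them. The study's methods name 2 library preparations, and which sample had which is not given in the sources used here. The library sets therefore cannot be matched to these preparations. Because set 2 held 3 of the 4 samples at 405 min and 1 of the 5 controls, the 405-min values of named genes are given from the model with group alone and from the model with group and library set. Set 1 holds 1 sample at 405 min and set 2 holds 1 control, so each 405-min test within a set has an arm of 1 sample, whose spread is assumed to be that of the others. All 10 fibroblast markers were above a median of 10 CPM, and their sum was 16400 to 19900 CPM in controls and 12800 to 17800 CPM at 405 min. The 5 epithelial, 3 endothelial and 2 neuronal markers each summed, as a list, to at most 6.41 CPM in any sample. The 3 blood markers summed to 0 to 3.09 CPM in controls and 5.48 to 7.22 CPM at 405 min, with the defining marker Ptprc at 0 to 0.746 CPM over all samples. The part of these shifts in the results below was not tested.

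The library sets were cut by the GC trend of these same expression values, so differences between the sets that follow GC content are built into them and are given as a description. In the model with both terms, 4 of the 10 genes were higher in set 2 (Calr by 1.39 on the log2 scale, Xbp1 by 1.18, Sdf2l1 by 0.92 and Herpud1 by 0.69), and Hsp90b1 (-0.64) and Dnajb9 (-1.35) were lower. Of all tested genes 50.1% were called between the sets, 2668 higher in set 2 and 2478 lower. The counts among the 10 genes did not stand far from this background. Xbp1, Herpud1 and Sdf2l1 had exonic GC contents of 50.8% to 56.7%, above the median of 49.1% over tested genes, whereas Dnajb9 had 38.3% and Hsp90b1 43.4%. Calr, with the largest positive difference, was near the median at 49.3%. The set differences of Hspa5, Dnajc3, Pdia4 and Edem1 lay between -0.24 and 0.11.

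**Figure D1:**
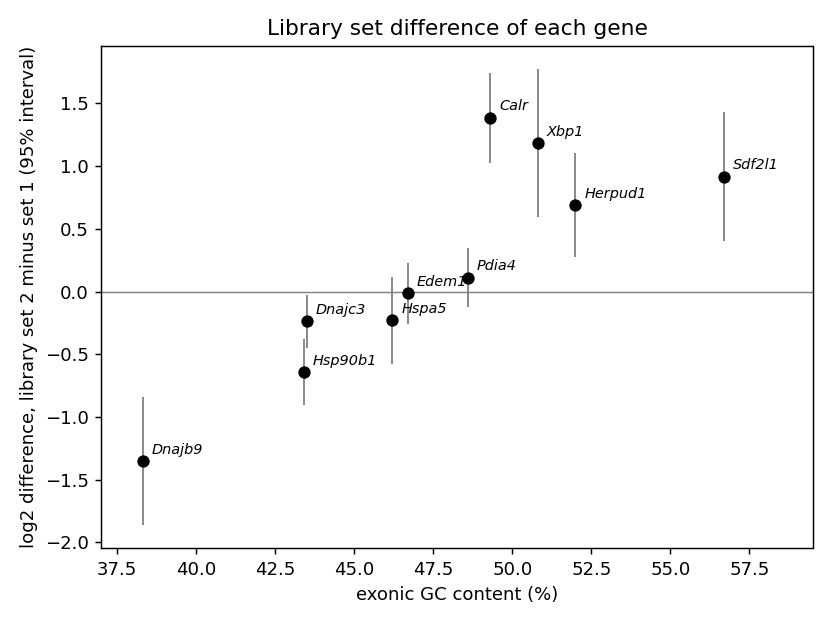
Log2 difference between library set 2 and set 1 (group in the model, bars are 95% intervals) against the exonic GC content of each of the 10 genes in percent. Dnajb9 is lowest at -1.35 and Calr, at 49.3% GC, highest at 1.39. A trend with GC follows from how the sets were made.

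In unstressed cells the 10 genes covered a wide range of levels. Per length and depth (RPKM, control samples, n = 5), Hsp90b1 was highest at 527 ± 148 (SD), above every value of the next gene. Calr followed at 126 ± 98.6 and Hspa5 at 83.4 ± 22.4, and these genes overlapped. Pdia4 (40.8 ± 15.6), Dnajb9 (17.6 ± 5.33) and Dnajc3 (12.7 ± 3.69) each overlapped with their neighbour in this order. The lowest levels were those of Edem1 (6.60 ± 1.75), Herpud1 (6.11 ± 3.58), Sdf2l1 (4.95 ± 2.57) and Xbp1 (3.98 ± 2.91), which could not be ordered beyond their spread.

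Of the 10 genes, none passed an adjusted p of 0.05 at 45 or 135 min and 2 rose at 405 min, Pdia4 and Calr. At 45 min no gene of the 10276 was called in either direction (0.0%), and no member had an unadjusted p under 0.05 by edgeR or DESeq2. At 135 min, 0.564% of the tested genes were called higher and 0.895% lower, and 1 of the 10 genes (Dnajc3) had an unadjusted p under 0.05 in edgeR, against 2 by DESeq2. At 405 min, 9.99% of all tested genes were called higher and 13.4% lower, so 2 of 10 higher and 0 of 10 lower did not stand far from the background. Between 405 and 135 min, 2.24% were called higher and 2.82% lower, and none of the 10 genes was, with 2 of them at an unadjusted p under 0.05 by edgeR and 3 by DESeq2. The median log2 fold change of the 10 genes was 0.001 at 45 min, 0.15 at 135 min and 0.30 at 405 min, beside medians of 0.022, -0.059 and -0.001 over all tested genes.

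With library set in the model, the calls were different. No member was called at 45 min, where 0.0292% of genes were higher and 0.00973% lower. Xbp1 alone was higher at 135 min, where 3.06% of all genes were higher and 4.88% lower. At 405 min, Dnajc3, Pdia4 and Calr were higher and Herpud1 was lower, beside 6.17% and 6.87% of all genes. Herpud1 was also lower at 405 than at 135 min, with 1.66% of all genes higher and 2.01% lower in that comparison. When the GC trend of each sample was removed instead, Hspa5, Dnajc3, Pdia4, Calr and Edem1 were higher and Herpud1 lower at 405 min, beside 11.7% and 14.7% of all genes. Pdia4 and Calr were thus higher at 405 min in all 3 models, and Herpud1 was lower in those that took the library into account. For Calr, removal of the GC trend changed the log2 fold change little (1.28, against 1.32 with group alone), whereas library set lowered it to 0.62.

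**Figure D2:**
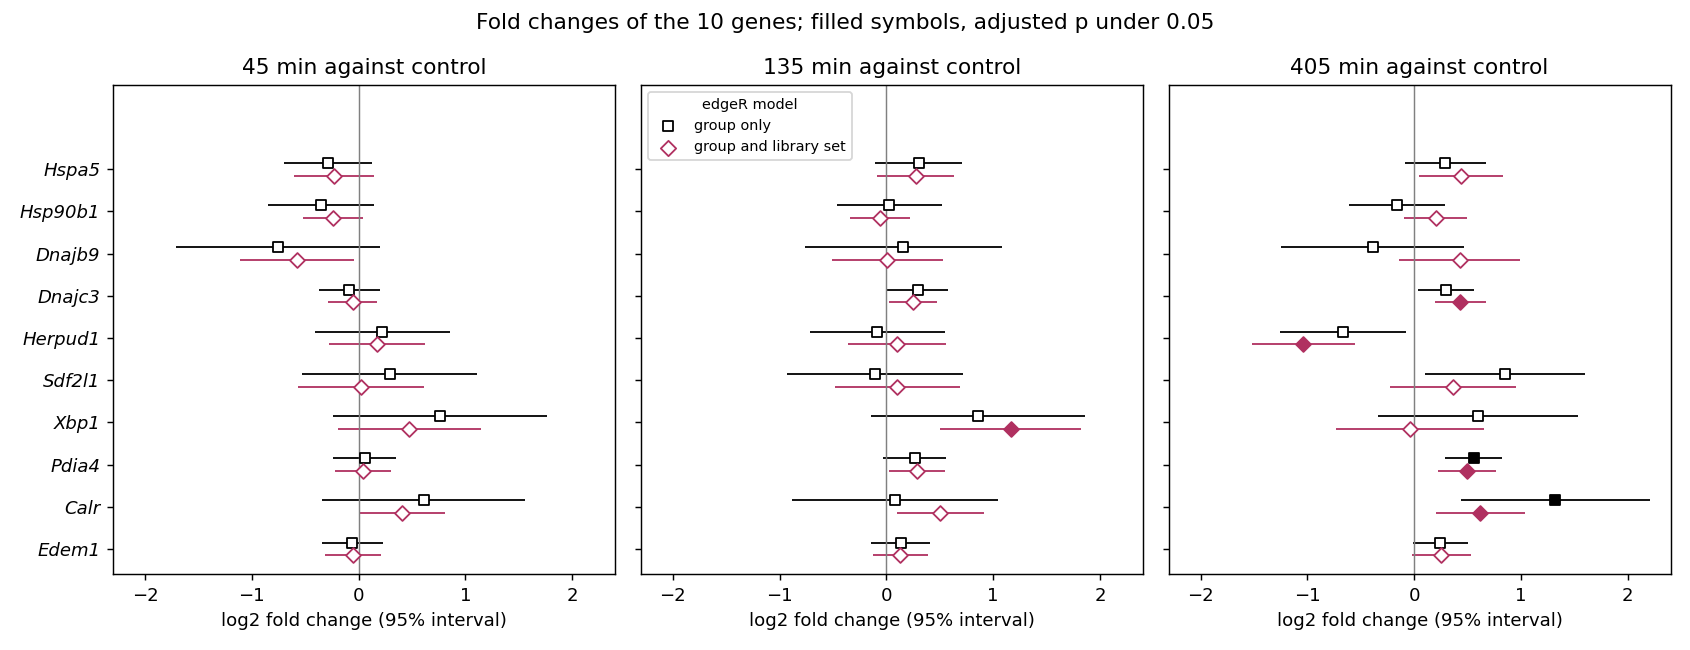
Log2 fold changes against control of the 10 genes at 45, 135 and 405 min with 95% intervals, from the model with group only (squares) and with group and library set (diamonds). Filled symbols have an adjusted p under 0.05, and at 405 min these are Pdia4 and Calr in both models and Dnajc3 and Herpud1 in the model with library set.

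Pdia4, a protein disulfide isomerase that forms and rearranges disulfide bonds in the ER, showed the clearest rise (chr6:47746140-47763511, mm9, - strand). Its level was 217, 233, 185, 188 and 262 CPM (reads of the gene scaled to library size with TMM factors) in control replicates 1 to 5. It was 247, 190 and 241 CPM at 45 min and 264, 255 and 263 CPM at 135 min. At 405 min it was 317, 344, 307 and 309 CPM. All 4 samples at 405 min lay above all 5 controls, whereas the earlier groups overlapped with them. Pdia4 was the only one of the 10 genes with this separation at 405 min, which 6.75% of all tested genes had upward and 6.43% downward. The mean rose from 217 ± 32.0 (SD, n = 5) to 319 ± 16.9 CPM (n = 4), which is 0.56 ± 0.13 (SE) on the log2 scale (edgeR adjusted p = 0.0086). It was 0.06 ± 0.14 at 45 min (adjusted p = 0.848) and 0.26 ± 0.14 at 135 min (adjusted p = 0.476). The rise at 405 min was 0.49 ± 0.13 with library set in the model (adjusted p = 0.0174), 0.52 ± 0.21 within set 1 and 0.46 ± 0.23 within set 2, where it did not pass the threshold (adjusted p = 0.243 and 0.311). Leaving out any of the 15 samples kept the call, with adjusted p-values of 0.00361 to 0.0336. In bulk RNA, more mRNA per cell and more cells that express the gene cannot be told apart, here or for the other genes.

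Calr (chr8:87365987-87370830, mm9, - strand), which encodes the calcium-binding lectin chaperone calreticulin, also rose at 405 min, but it was the gene with the largest library set difference. The controls were at 366, 1025, 266, 312 and 519 CPM, and the high value was control replicate 2 of set 2. At 45 min the values were 596, 376 and 1308 CPM, the last from set 2, and at 135 min they were 527, 522 and 531 CPM. At 405 min they were 1674, 1228, 615 and 1457 CPM, and the low value was replicate 3, the only sample of set 1. Calr at 405 min therefore overlapped with control, and that 1 sample lay above the 4 controls of set 1, as it did for 25.8% of all tested genes. The log2 fold change at 405 min was 1.32 ± 0.42 (adjusted p = 0.0343) in the model with group alone and 0.62 ± 0.20 with library set (adjusted p = 0.0466). Within the sets it was 0.74 ± 0.31 (set 1, adjusted p = 0.258) and 0.49 ± 0.26 (set 2, adjusted p = 0.363). The call was lost when control replicate 1 (log2 fold change 1.23, adjusted p = 0.0784), 3 (1.14, 0.0692), 4 (1.19, 0.082) or 5 (1.35, 0.0565) was left out. It was also lost without 405-min replicate 1 (1.15, adjusted p = 0.109), 2 (1.33, 0.0721) or 4 (1.24, 0.0923), with only the groups compared (1.32, 0.07), with a replicate block (1.42, 0.109) and with block and GC offset together (1.36, 0.0797). At 45 and 135 min the log2 fold change was 0.61 ± 0.45 and 0.08 ± 0.45 (adjusted p = 0.698 and 0.966).

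Hspa5, which encodes BiP, the Hsp70 of the ER lumen and the usual readout of the UPR, did not pass the test at any time. Its levels were 444, 298, 643, 514 and 524 CPM in controls and 346, 418 and 427 CPM at 45 min. They were 581, 610 and 604 CPM at 135 min and 670, 584, 599 and 522 CPM at 405 min. Control replicate 3, the shallowest library, was above all samples of 135 min and above 3 of the 4 samples at 405 min, and control replicate 2 was the lowest of all 15. In RPKM this order was different, and control replicate 3 was the lowest at 62.7. The read total behind its RPKM was 0.781 times that of control replicate 1, beside total counts of 6652539 and 14207930. RPKM and CPM thus scaled this sample differently. The 135-min samples (118 to 126 RPKM) then lay above all controls (at most 116 RPKM), and the 405-min samples (104 to 124 RPKM) overlapped with them. The share of all tested genes separated this way in RPKM was not computed, so nothing is drawn from this separation. The log2 fold change was -0.29 ± 0.19 at 45 min (adjusted p = 0.698), 0.31 ± 0.19 at 135 min (0.573) and 0.29 ± 0.18 at 405 min (0.213). Its 95% interval at 405 min, -0.082 to 0.67, leaves room for a rise of the size of Pdia4's. With the library set term it was 0.44 ± 0.19 (adjusted p = 0.136), and with the GC trend removed it was 0.47 ± 0.16 (adjusted p = 0.0364). The 405-min difference was 0.17 ± 0.20 within set 1 (adjusted p = 0.714) and 0.98 ± 0.25 within set 2 (adjusted p = 0.034), against the only control of set 2. The difference between the sets, 0.82 ± 0.30, had an unadjusted p of 0.0166 and an adjusted p of 1.0 over all genes.

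Hsp90b1 encodes GRP94, the Hsp90 of the ER, and was the most abundant of the 10 genes. Controls were at 3400, 1933, 4071, 3765 and 3391 CPM, and the samples of 45 min at 2586, 3053 and 2143 CPM. The samples of 135 min were at 3203, 3592 and 3337 CPM and those of 405 min at 2292, 3084, 3931 and 2525 CPM. The groups overlapped at every time, and the set 2 sample was the lowest in control and at 45 min. Log2 fold changes were -0.35 ± 0.23, 0.03 ± 0.23 and -0.16 ± 0.21 at 45, 135 and 405 min (adjusted p = 0.698, 0.98 and 0.569). At 405 min the sign turned with library set in the model, to 0.20 ± 0.14 (adjusted p = 0.374). No direction can therefore be given for the gene that carries 2 ERSE sequences.

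Dnajb9 encodes ERdj4, a J-domain co-chaperone of BiP. Its levels in controls were 86.2, 28.3, 146, 82.3 and 61.4 CPM, a spread of 53.2% of the mean. At 45 min they were 53.2, 66.8 and 23.3 CPM, at 135 min 88.4, 100.4 and 80.7 CPM, and at 405 min 38.8, 66.1, 96.6 and 44.8 CPM. The lowest values, 28.3, 23.3 and 38.8 CPM, all came from set 2. Its log2 fold change was -0.76 ± 0.45 at 45 min (adjusted p = 0.698), 0.16 ± 0.43 at 135 min (0.931) and -0.39 ± 0.40 at 405 min (0.47). The last of these became 0.43 ± 0.27 with library set in the model (adjusted p = 0.327).

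Dnajc3 encodes p58IPK, a further J-domain co-chaperone of the ER that is also known to inhibit PERK. Control samples had 158, 124, 136, 154 and 151 CPM, and 45-min samples had 140, 149 and 120 CPM. At 135 min all 3 samples, with 173, 188 and 169 CPM, were above all controls, a separation that 4.79% of tested genes had upward and 4.75% downward. At 405 min the values were 155, 199, 194 and 164 CPM, and replicate 1 fell within the control range. Its log2 fold change was -0.09 ± 0.13 at 45 min (adjusted p = 0.778), 0.29 ± 0.13 at 135 min (0.4) and 0.30 ± 0.12 at 405 min (0.0836). The library set term gave 0.43 ± 0.11 at 405 min (adjusted p = 0.0168), and removal of the GC trend gave 0.59 ± 0.11 (adjusted p = 0.0013).

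Sdf2l1, a partner of J-domain proteins in the ER lumen, was measured at 9.20, 16.4, 10.1, 7.98 and 14.5 CPM in controls. The values were 10.6, 5.75 and 26.3 CPM at 45 min and 10.6, 9.72 and 12.2 CPM at 135 min. At 405 min they were 22.1, 19.0, 16.0 and 26.9 CPM. The 405-min samples lay above all samples of 135 min, which 19.2% of all tested genes and 3 of the 10 (Sdf2l1, Pdia4 and Calr) did, but the lowest of them was under the highest control, which was from set 2. At 405 min the log2 fold change was 0.85 ± 0.35 (adjusted p = 0.087), and it was 0.36 ± 0.28 with library set in the model (0.431). Leaving out control replicate 2 (1.01, adjusted p = 0.0331), 45-min replicate 2 (0.85, adjusted p = 0.0495) or 45-min replicate 3 (0.85, adjusted p = 0.0319) moved it past the threshold. At 45 and 135 min it was 0.29 ± 0.38 and -0.11 ± 0.39 (adjusted p = 0.74 and 0.95).

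**Figure D3:**
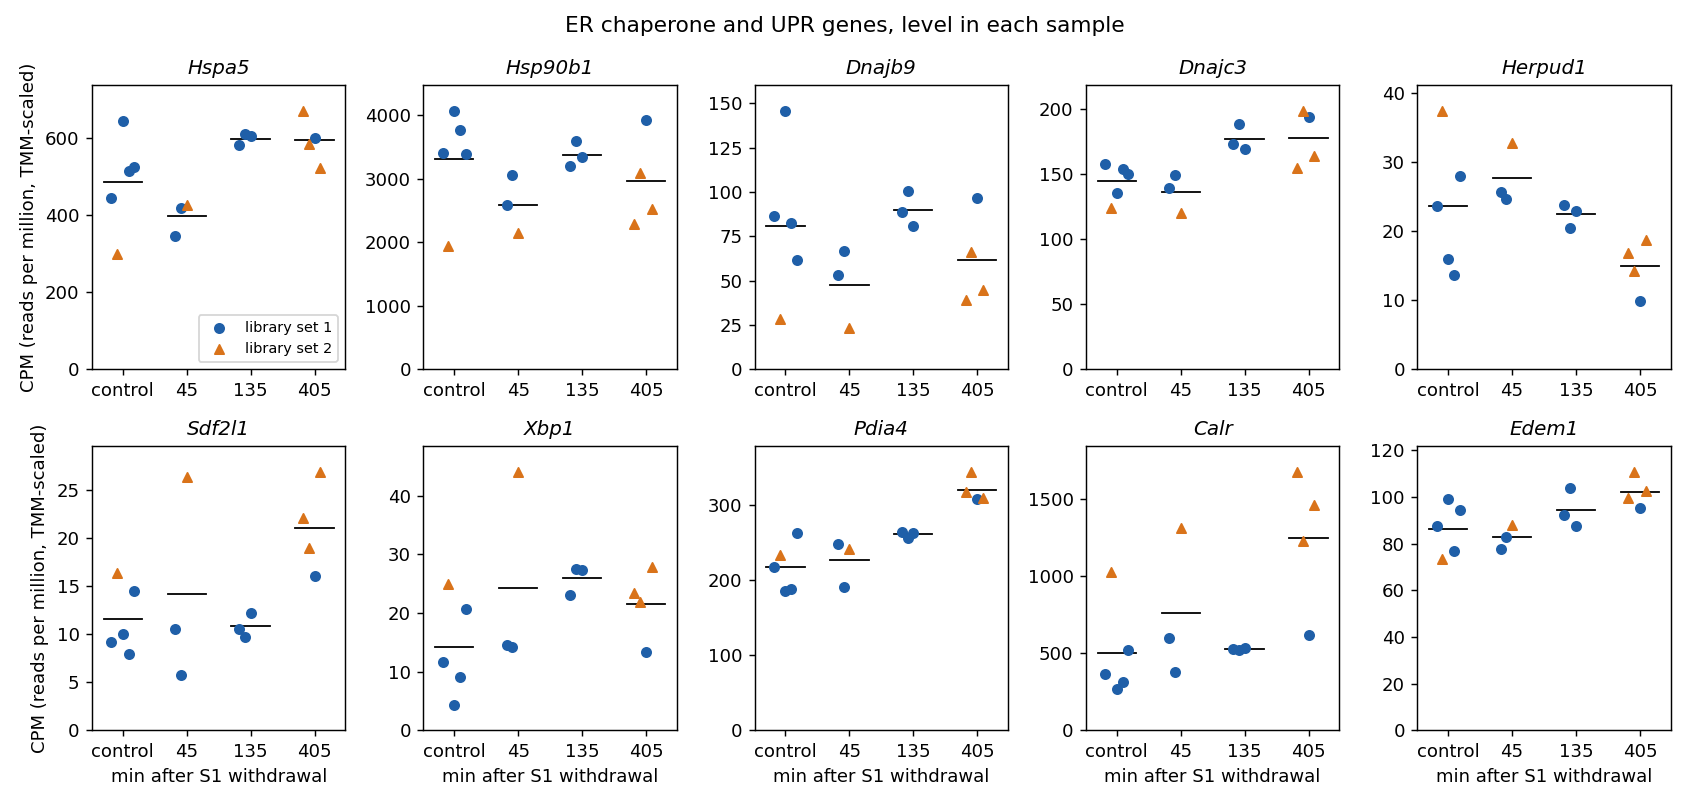
Level of each of the 10 genes in CPM in every sample, by time after S1 withdrawal, with horizontal lines at group means, circles for library set 1 and triangles for set 2. Pdia4 at 405 min (307 to 344 CPM) is above all controls (185 to 262 CPM). The triangles are the highest points of Calr and, within each group that has them, the lowest of Dnajb9.

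Xbp1, the transcription factor that IRE1 activates by splicing, had the lowest mean RPKM of the 10 genes in controls. Its control values overlapped with those of Sdf2l1, Herpud1 and Edem1. Controls had 11.7, 25.0, 4.33, 9.06 and 20.8 CPM, and the value of the shallowest library rested on 25 counts. The levels were 14.6, 14.2 and 44.1 CPM at 45 min and 23.0, 27.5 and 27.3 CPM at 135 min. They were 23.4, 21.9, 13.3 and 27.8 CPM at 405 min. At 135 min all 3 samples were above the 4 controls of the same library set and overlapped only with control replicate 2 of set 2. Within set 1, 14.6% of all tested genes and 3 of the 10 (Xbp1, Dnajc3 and Calr) were separated upward in this way. The log2 fold change at 135 min was 0.86 ± 0.47 (adjusted p = 0.505), and with library set in the model it was 1.16 ± 0.31 (adjusted p = 0.0337). Within set 1 it was 1.16 ± 0.38 (adjusted p = 0.0962). At 405 min it was 0.60 ± 0.44 (adjusted p = 0.307) and turned to -0.04 ± 0.33 with library set in the model (0.959). These values count the gene's reads together and hold nothing on splicing of the mRNA.

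Herpud1 encodes HERP, a membrane protein that organizes the complex of ER-associated degradation (chr8:96910400-96919258, mm9, + strand). It was the only one of the 10 genes called lower at any time, in the models with library set or GC trend and by DESeq2 but not in the edgeR model with group alone. Controls had 23.6, 37.5, 15.9, 13.6 and 27.9 CPM, samples of 45 min had 25.7, 24.7 and 32.9 CPM, and samples of 135 min had 23.8, 20.5 and 23.0 CPM. At 405 min the values were 16.9, 14.2, 9.90 and 18.7 CPM, all below all 3 samples of 135 min (as for 17.6% of tested genes) but overlapping with controls 3 and 4. Within each library set the groups did not overlap, since the set 1 sample at 405 min (9.90 CPM) was below all 4 set 1 controls and the set 2 samples (14.2 to 18.7 CPM) were below the set 2 control (37.5 CPM). With arms this small such separations were frequent, at 24.5% of all tested genes downward in set 1, 32.1% downward and 30.5% upward in set 2, and 15.2% downward and 16.4% upward in both sets at once. Of the 10 genes, Herpud1 was the only one lower in both sets, and Dnajc3, Sdf2l1, Pdia4 and Calr were higher in both. The log2 fold change at 405 min was -0.67 ± 0.28 (adjusted p = 0.0866) with group alone, -1.04 ± 0.23 with library set in the model (adjusted p = 0.00611) and -0.89 ± 0.21 with the GC trend removed (adjusted p = 0.00704). It was -1.05 ± 0.41 within set 1 (adjusted p = 0.227) and -1.19 ± 0.24 within set 2 (adjusted p = 0.009), each with 1 sample in an arm. DESeq2 gave -0.68 (adjusted p = 0.0464), and without control replicate 3 the group model gave -0.80 (adjusted p = 0.0491). At 45 and 135 min it was 0.22 ± 0.30 and -0.08 ± 0.30 (adjusted p = 0.741 and 0.949). Against 135 min, the difference at 405 min was -0.59 ± 0.31 (adjusted p = 0.223) and, with library set in the model, -1.14 ± 0.27 (adjusted p = 0.0293).

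Edem1 encodes a lectin that hands misfolded glycoproteins to degradation. Its control values were 87.6, 73.5, 99.0, 76.9 and 94.3 CPM, and the 45-min values were 77.9, 82.9 and 87.8 CPM. It was at 92.3, 103.7 and 87.6 CPM at 135 min and at 99.7, 110.8, 95.3 and 102.5 CPM at 405 min. At 405 min 3 of the 4 samples were above all controls. The log2 fold changes were -0.06 ± 0.13, 0.13 ± 0.13 and 0.24 ± 0.12 at 45, 135 and 405 min (adjusted p = 0.846, 0.744 and 0.139). The difference of Edem1 between the library sets was -0.02 ± 0.12, and its 405-min difference was 0.25 ± 0.13 with the set in the model (adjusted p = 0.221) and 0.37 ± 0.11 with the GC trend removed (adjusted p = 0.0261).

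The other genes of the secretory pathway were taken from 7 lists of 90 genes in the tables that are not among the 10, and 87 of them were tested. None passed the test at 45 or 135 min in either direction in the group model. At 405 min, 17 rose and 9 fell, beside the 9.99% and 13.4% of all tested genes, and the median log2 fold change was 0.21 beside -0.001. With library set in the model, 8 were higher and 6 lower at 405 min, beside 6.17% and 6.87% of all tested genes. At 135 min 4 were higher and 1 lower in that model, beside 3.06% and 4.88%. At 45 min 1 PERK branch target was higher in that model, beside 0.0292% of all tested genes. Without control replicate 2 the group model called 35 higher and 21 lower, and without 405-min replicate 4 it called 4 and 5, the fewest higher. The other samples whose omission moved a count by over 1.5 times were control replicates 1 (8 higher, 5 lower), 3 (11 higher) and 4 (10 higher, 5 lower) and 405-min replicates 1 (5 and 4), 2 (7 and 4) and 3 (16 lower).

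Of 17 ER folding enzymes, 7 rose at 405 min and none fell, beside 9.99% and 13.4% of all tested genes. Hyou1, the large ER chaperone that acts as nucleotide exchange factor of BiP, went from 67.3 ± 24.0 to 147 ± 48.6 CPM, with a log2 fold change of 1.12 ± 0.29 (adjusted p = 0.0159). Creld2, an ER protein induced by ER stress, went from 38.9 ± 9.71 to 64.2 ± 7.36 CPM (0.72 ± 0.19, adjusted p = 0.0159, and 0.55 with library set in the model, adjusted p = 0.058). The smallest of the rises were those of P4hb, the classical protein disulfide isomerase (0.42 ± 0.14, adjusted p = 0.0456), and Canx, the membrane-bound lectin calnexin (0.35 ± 0.10, adjusted p = 0.0291). With library set in the model 4 of the 17 were higher, beside 6.17% of all tested genes. Hyou1 (0.56, adjusted p = 0.0258) and Canx (0.32, adjusted p = 0.0457) were among them, and P4hb was not (0.23, adjusted p = 0.165). The 17 genes had a median log2 fold change of 0.44.

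In ER-associated degradation, 13 of 16 listed genes were tested. At 405 min 3 rose and none fell, beside 9.99% and 13.4% of all tested genes. Hspa13, a microsomal member of the Hsp70 family that was put in this list, rose by 0.78 ± 0.15 (adjusted p = 0.00292) and by 0.83 with library set in the model (adjusted p = 0.00263). Sel1l, the adaptor of the HRD1 ubiquitin ligase, rose by 0.60 ± 0.19 (adjusted p = 0.0334) and Derl1, a channel component, by 0.42 ± 0.12 (adjusted p = 0.0224), and both missed the threshold with library set in the model (adjusted p = 0.142 and 0.0627). Herpud1 had the opposite sign, at -0.67 with group alone, where it was not called (edgeR adjusted p = 0.0866). With library set in the model it was -1.04 (edgeR adjusted p = 0.00611).

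Of the 11 sensors and transcription factors of the UPR, 2 fell and none rose at 405 min, beside 13.4% and 9.99% of all tested genes. With library set in the model 3 were lower and none higher, beside 6.87% and 6.17%. Mbtps2, the site-2 protease that releases ATF6, went from 64.2 ± 17.7 to 31.3 ± 4.93 CPM (-1.04 ± 0.19, adjusted p = 0.00223, and -0.81 with library set in the model, adjusted p = 0.00444). Atf4, the transcription factor of the PERK branch, went from 422 ± 27.5 to 309 ± 17.0 CPM (-0.45 ± 0.10, adjusted p = 0.00907, and -0.43 with library set in the model, adjusted p = 0.0114). Atf6 had -0.41 ± 0.15 (adjusted p = 0.0606, and -0.30 with library set in the model, adjusted p = 0.191). Ern1 had 1.17 ± 0.54 (adjusted p = 0.114, and 0.71 with library set in the model, adjusted p = 0.336). The list's median log2 fold change was 0.03.

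The PERK branch was represented by 5 tested of 8 listed targets. With library set in the model 1 of them was higher at 45 min, beside 0.0292% of all tested genes. Ddit3, which encodes the pro-apoptotic factor CHOP, was at 30.1 ± 12.8 CPM in controls and 31.4 ± 4.60 CPM at 405 min (0.05 ± 0.33, adjusted p = 0.91, and -0.21 with library set in the model, adjusted p = 0.705). Chac1, a glutathione-degrading enzyme downstream of ATF4, fell from 9.94 ± 2.20 to 4.84 ± 1.58 CPM (-1.04 ± 0.29, adjusted p = 0.0214, and -1.19 with library set in the model, adjusted p = 0.0221). Sesn2, which is also known as a p53 target, rose from 6.84 ± 5.47 to 22.7 ± 11.4 CPM (1.70 ± 0.52, adjusted p = 0.031). With library set in the model, Sesn2 was higher at 135 min (2.39, adjusted p = 1.23e-05) and had 0.76 at 405 min (adjusted p = 0.0502). The rise of Sesn2 and the fall of Chac1 and Atf4 went in opposite directions within 1 branch.

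Of 16 genes of ER translocation and the signal peptidase, 4 fell at 405 min and none rose, beside 13.4% and 9.99% of all tested genes. Only 1 was lower in the model with library set, beside 6.87% of all tested genes. The median log2 fold change was -0.36, and it was -0.15 with library set in the model and -0.095 with the GC trend removed. Spcs3, a signal peptidase subunit, fell from 188 ± 23.4 to 116 ± 15.9 CPM (-0.69 ± 0.13, adjusted p = 0.00346, and -0.53 with library set in the model, adjusted p = 0.00678). The translocon subunits Sec61g (-1.65 ± 0.50, adjusted p = 0.0307) and Sec61b (-1.26 ± 0.41, adjusted p = 0.0375) fell in the group model, as did Ssr3 of the translocon-associated complex (-1.20 ± 0.40, adjusted p = 0.0409). With library set in the model these 3 were no longer called (adjusted p = 0.212, 0.343 and 0.307).

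Of 9 genes of N-glycan transfer, 2 rose and 2 fell at 405 min, beside 9.99% and 13.4% of all tested genes. Dad1 (0.94 ± 0.30, adjusted p = 0.037) and Rpn1 (0.57 ± 0.19, adjusted p = 0.0452), subunits of the oligosaccharyltransferase, were higher. With library set in the model Dad1 had 0.60 (edgeR adjusted p = 0.125) and Rpn1 0.28 (edgeR adjusted p = 0.217). Tusc3 (-0.89 ± 0.25, adjusted p = 0.0223) and Ostc (-0.78 ± 0.15, adjusted p = 0.00292), further subunits, were lower, and only Ostc stayed past the threshold with library set in the model (-0.58, adjusted p = 0.00595). Tusc3 had -0.42 in that model (edgeR adjusted p = 0.0571). The list for COPII transport, which also holds cargo and KDEL receptors, had 4 of 16 genes higher and none lower. Over all tested genes these shares were 9.99% and 13.4%. Surf4, a cargo receptor, went from 115 ± 54.5 to 254 ± 81.1 CPM (1.14 ± 0.30, adjusted p = 0.0162). The coat subunits Sec23b (1.01 ± 0.27, adjusted p = 0.0191) and Sec24d (0.84 ± 0.14, adjusted p = 0.0012) and the scaffold Sec16a (0.96 ± 0.30, adjusted p = 0.0331) rose as well. In the model with library set Surf4, Sec23b and Sec24d were still called (adjusted p = 0.0219, 0.0454 and 0.00146). Sec16a was no longer called (0.48, edgeR adjusted p = 0.0657).

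**Figure D4:**
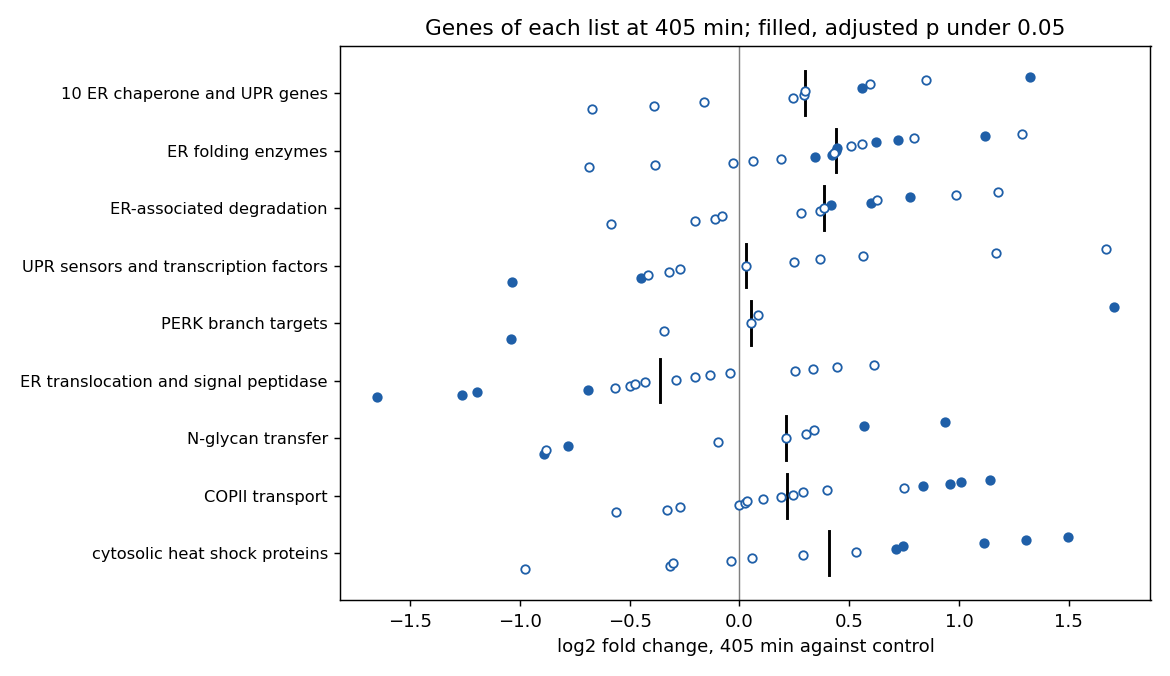
Log2 fold change at 405 min against control (group model) of each tested gene, by list, with the 10 genes on top. Filled points have an adjusted p under 0.05 and vertical bars are list medians, which run from -0.36 for ER translocation to 0.44 for ER folding enzymes.

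Heat shock proteins outside the ER gave a comparison with the compartment that held the unfolded domain. The list had 14 genes, 12 of them tested, and included the mitochondrial chaperonins Hspd1 and Hspe1. At 135 min 5 of the 12 rose and none fell, beside 0.564% and 0.895% of all tested genes, and at 405 min 5 rose and none fell, beside 9.99% and 13.4%. The model with library set called 6 higher at 135 min and 5 at 405 min, beside 3.06% and 6.17% of all tested genes. No test compared these genes with the 10 ER genes as groups. Bag3, a co-chaperone of Hsp70, rose from 46.5 ± 9.17 to 131 ± 31.3 CPM at 405 min (1.50 ± 0.18, adjusted p = 0.000161) and by 0.87 ± 0.20 at 135 min (adjusted p = 0.04). The model with library set gave 1.22 (adjusted p = 3.41e-05) and 0.98 (adjusted p = 0.000313) at these times. Hspa8, the constitutive cytosolic Hsp70, rose by 0.87 ± 0.20 at 135 min (adjusted p = 0.0478) and 1.31 ± 0.19 at 405 min (adjusted p = 0.000467), and by 0.95 (adjusted p = 0.00176) and 1.11 (adjusted p = 0.000268) with library set in the model. Hsp90ab1 rose at 405 min (0.71 ± 0.13, adjusted p = 0.00181, and 0.63 with library set in the model, adjusted p = 0.00147). Dnajb1, a cytosolic J-domain protein, rose at 135 min (1.14 ± 0.26, adjusted p = 0.0378) and 405 min (0.74 ± 0.24, adjusted p = 0.0369). The Dnajb1 call held with library set in the model at 135 min (1.33, adjusted p = 0.000154) and was lost at 405 min (0.40, adjusted p = 0.151). Hspa8 and Hsp90ab1 have processed copies in the genome, so the counting of their reads is less certain.

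The ER and cytosolic members of 3 chaperone families were compared directly as log2 ratios within each library, in which scaling between libraries cancels. The ratio of Hsp90b1 to Hsp90aa1 was 0.08, -0.05, -0.06, 0.11 and 0.19 in controls and -0.11, 0.03 and 0.05 at 45 min. It was -0.30, -0.32 and -0.31 at 135 min and -0.65, -0.60, -0.59 and -0.74 at 405 min. All samples at 135 and 405 min lay below all controls. The 135-min samples were all of set 1. The group mean was -0.36 from control at 135 min, with an exact permutation p of 0.0179 (0.0804 after adjustment over 9 tests). At 405 min it was -0.70 from control, with an exact permutation p of 0.00794 (0.0714 adjusted). These are the smallest p-values that 3 against 5 and 4 against 5 samples can give, and after adjustment they missed 0.05. At 405 min the difference was -0.67 within set 1 and -0.61 within set 2. At 45 min it was -0.06 (exact permutation p = 0.446). Hsp90aa1 itself went from 3190 ± 813 CPM in controls to 4183 ± 269 at 135 min and 4603 ± 988 at 405 min. Its log2 fold change at 405 min was 0.53 ± 0.20 (edgeR adjusted p = 0.0693), and 0.87 with library set in the model (edgeR adjusted p = 0.000552). For Hsp90b1 no direction could be given, so the lower ratio does not show a fall of the ER gene.

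Hspa5 relative to Hspa8 had a log2 ratio of -3.20 ± 0.75 in controls (SD, n = 5), -3.83 ± 0.30 at 45 min, -3.76 ± 0.06 at 135 min and -4.21 ± 0.25 at 405 min. The difference at 405 min was -1.01 (exact permutation p = 0.0317, adjusted p = 0.0952), with -1.08 within set 1 and -0.04 within set 2. Control replicate 2, at -4.23, was as low as the 405-min samples. Dnajb9 relative to Dnajb1 was 1.87 ± 1.22 in controls and 0.51 ± 0.91, 1.02 ± 0.20 and 0.82 ± 0.95 at the later times, and no difference passed (exact permutation, adjusted p = 0.321 to 0.342). Without control replicate 2, the ratio of Hsp90b1 to Hsp90aa1 at 135 min (-0.39) and 405 min (-0.72), that of Hspa5 to Hspa8 at 405 min (-1.27) and that of Dnajb9 to Dnajb1 at 45, 135 and 405 min (-1.88, -1.37 and -1.57) each reached an exact permutation adjusted p of 0.0429. This omission leaves only controls of set 1, while 3 of the 4 samples at 405 min are of set 2. Library set then goes largely with time at 405 min. Within the sets, the 405-min difference of Dnajb9 to Dnajb1 was -0.29 (set 1) and 0.59 (set 2).

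**Figure D5:**
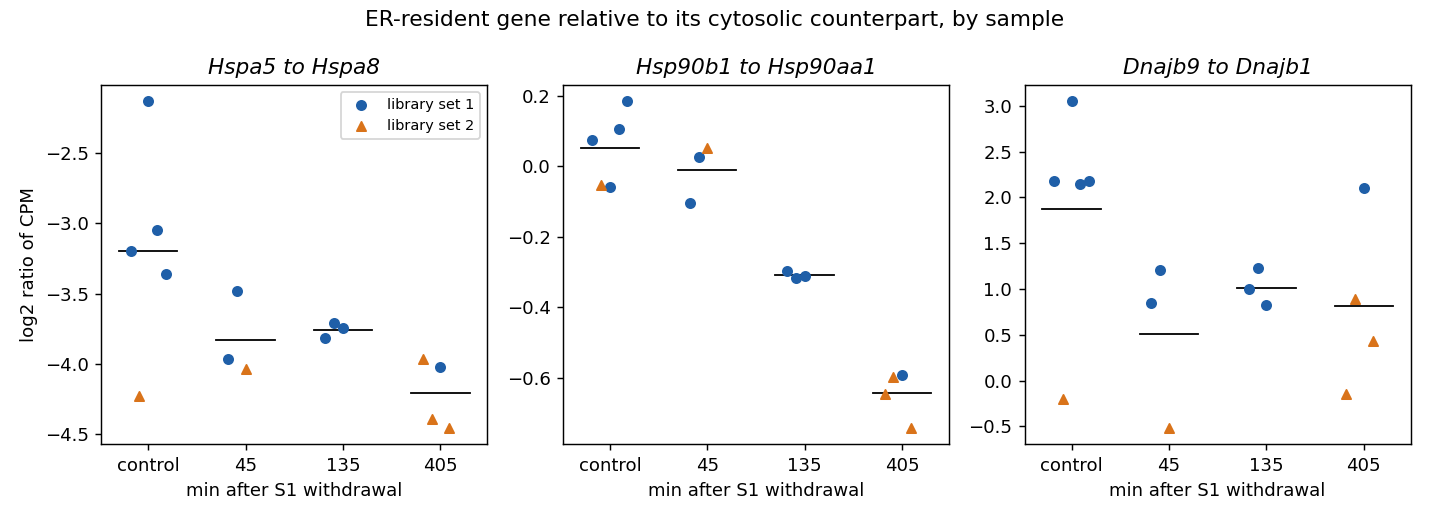
Log2 ratio of the CPM of an ER chaperone gene to its cytosolic relative in each sample, by time after S1 withdrawal (circles library set 1, triangles set 2, lines are group means). For Hsp90b1 to Hsp90aa1 all samples at 135 min (-0.32 to -0.30) and 405 min (-0.74 to -0.59) lie below all controls.

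The 10 genes did not all move as 1 group. Each was compared with the mean of the 10, which includes the gene itself. Against their mean standardised log2 CPM over the 15 samples, Edem1 (r = 0.87) and Pdia4 (0.85) were the most alike, Hsp90b1 (0.12) and Dnajb9 (0.10) were nearly unrelated and Herpud1 was opposite (-0.36). After each set's mean was subtracted, Pdia4 (0.88) and Edem1 (0.85) still led and Herpud1 was still negative (-0.45). Hsp90b1 (0.54) and Dnajb9 (0.49) were then more like the mean, so their low values above went with library set. Outside the 10, the genes most alike over the 15 samples were Pitpnc1 (0.91), Ampd3 (0.91), Mfn1 (0.90), Canx (0.88) and Egln3 (0.87). After subtraction of set means they were Ccng1 (0.93), Fas (0.92), Pitpnc1 (0.91), Mfn1 (0.91) and Ampd3 (0.90), of which Ccng1 and Fas are known p53 targets. These are descriptions over samples that share library sets and time groups, and no test was made.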

How the data were processed

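Poly(A) RNA of 15 samples was sequenced by the authors, who aligned reads to mm9, quantified RefSeq genes on the DNAnexus platform and deposited expected counts (estimated counts that need not be whole, large values to 4 significant digits) and RPKM (counts per gene length and depth). The aligner is not given in the sources used here. Deposited standard scores were not used. Groups and replicate numbers came from sample titles. Nothing says that samples came from separate cultures, so p-values measure the spread between these samples. The design had assumed whole counts. Expected counts were rounded, and genes at 1 count or more in all samples were tested with edgeR 4.0.16 in R 4.3.3 (TMM factors, 1 quasi-likelihood model of all 15 samples with a term for group, Benjamini-Hochberg over 10276 genes, threshold 0.05), after the study's methods, which name edgeR and this threshold. The SE is the log2 fold change over the square root of F. The code was tested on simulated data. Library sets were cut at a slope of 0.2 of log2 CPM, relative to each gene's mean over samples, on exonic GC (NCBIM37 with GENCODE exons). The GC trend was a lowess curve (span 0.5) per sample, used as an offset. Ratios used CPM with a prior count of 0.5 and two-sided exact permutation tests over samples, adjusted over 9 tests. Counting error alone is 31.6% at 10 counts. No pair of replicates agreed within sampling noise.

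The 10 genes, the lists and the tests were chosen with earlier results of these data known. Named were the 10 genes, the genes of each ratio, the 2 genes with the largest and the 2 with the smallest log2 fold change at 405 min among called genes of each list, Ddit3, Atf4, Atf6 and Ern1, and the 5 genes most correlated with the mean of the 10, before and after subtracting set means. Alternatives were DESeq2 1.42.0 and its size factors, other filters, only the compared groups, replicate block, GC offset, library set as covariate, each set alone and each sample left out. The genes Ppp1r15a, Erlec1 and Vimp of the lists were not analysed here.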

Additional observations from a re-analysis of the deposited data

Results flagged for a closer look

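Control replicate 2 had a log2 ratio of Dnajb9 to Dnajb1 of -0.20, far from the other 4 controls at 2.15 to 3.05. It was the only library of set 2 among the controls. Of 26 sets of values tested this way, 1 stood out, and chance alone marks about 1 in 20. For Hspa5, the difference of the 405-min effect between the library sets was 0.82 with an unadjusted p of 0.0166 and an adjusted edgeR p of 1.0.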

How the results depend on the processing

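Depth limits the scarce genes Xbp1, Sdf2l1 and Herpud1, and set 2 holds 1 control, so values within it rest on that sample. Replicate numbers are shared between groups but did not pair the samples (19 same-number pairs, mean r -0.11, 4 of them over 0.1, and 2 samples correlated best with their own number). The cause of the changes below was not tested. Of the 10 genes, the number higher at 405 min (2) was 1 with only the compared groups, 1 with a replicate block, 5 with the GC offset, 0 within set 1, 1 within set 2 and 1 to 3 when samples were left out. The number lower (0) was 1 by DESeq2, with the replicate block and GC offset together, with the GC offset, with library set and within set 2, and 0 to 1 with samples left out. Between 405 and 135 min it was 2 higher with only the compared groups, 0 to 1 higher with samples left out, and 1 lower with the GC offset or library set. At 135 min 1 was higher with library set. Pathway genes higher at 135 min (0) were 4 by DESeq2, 4 with library set, 2 within set 1, 1 with the GC offset, 1 with the replicate block and GC offset, and 0 to 1 with samples left out, and 1 was lower with library set and within set 1. Pathway genes higher at 405 min (17) were 9 without a filter, 3 with only the compared groups, 4 with the replicate block, 10 with block and GC offset, 8 with library set, 0 and 1 within sets 1 and 2, and 4 to 35 with samples left out. Those lower (9) were 15 by DESeq2, 3 with only the compared groups, 4 with the block, 5 with block and GC offset, 0 within each set, and 4 to 21 with samples left out. Ratio differences with samples left out ran from -1.27 to -0.75 (Hspa5 to Hspa8, 405 min), -0.39 to -0.33 and -0.72 to -0.66 (Hsp90b1 to Hsp90aa1, 135 and 405 min) and -1.88 to -0.85, -1.37 to -0.56 and -1.57 to -0.73 (Dnajb9 to Dnajb1, 45, 135 and 405 min). Signs turned for Hspa5 to Hspa8 at 45 min within set 2 (0.20), Hsp90b1 to Hsp90aa1 at 45 min with the GC offset (0.012), within set 2 (0.10) and with the replicate block (0.002), and Dnajb9 to Dnajb1 at 405 min within set 2 (0.59). The block was tested by exact sign flips, a permutation test that cannot go below p = 0.25 for 3 pairs or 0.125 for 4, and changed no other call of a ratio.

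Log2 fold changes that turned sign had not passed the test in the group model. With the GC offset these were 0.13 (Hspa5, 405 against 135 min), 0.15 and 0.018 (Hsp90b1, 405 min against control and 135 min), 0.19 (Dnajb9, 405 min), 0.067 (Dnajc3, 45 min), -0.12 (Sdf2l1, 45 min) and 0 (Edem1, 45 min). With the replicate block and GC offset they were 0.14, 0.15, 0.015, 0.13, 0.074, -0.069 and 0.003 in the same order, and 0.019 for Sdf2l1 at 135 min. The replicate block alone gave 0.002 for Herpud1 at 135 min. With library set they were 0.16 (Hspa5) and 0.27 (Hsp90b1) and 0.42 (Dnajb9) at 405 against 135 min, -0.063 (Hsp90b1), 0.098 (Herpud1) and 0.10 (Sdf2l1) at 135 min, and 0.20 (Hsp90b1), 0.43 (Dnajb9) and -0.035 (Xbp1) at 405 min. Within set 1 they were -0.11 (Hsp90b1), -0.052 (Dnajb9), 0.14 (Herpud1) and 0.055 (Sdf2l1) at 135 min, -0.34 (Sdf2l1) at 45 min, 0.096 (Hsp90b1) and 0.041 (Dnajb9) at 405 min, and 0.21 (Hsp90b1), 0.093 (Dnajb9) and -0.001 (Edem1) at 405 against 135 min. Within set 2 they were 0.52 (Hspa5), 0.15 (Hsp90b1), -0.19 (Herpud1) and 0.25 (Edem1) at 45 min and 0.44 (Hsp90b1), 0.82 (Dnajb9) and -0.046 (Xbp1) at 405 min. Dnajc3 at 405 against 135 min was -0.008 with DESeq2 or its size factors, -0.010 without a filter, -0.024 with filterByExpr and -0.023 with only the compared groups. With samples left out the ranges that crossed 0 were -0.074 to 0.046 (Hspa5) and -0.050 to 0.069 (Dnajc3) at 405 against 135 min, -0.12 to 0.11 (Hsp90b1), -0.060 to 0.48 (Dnajb9), -0.23 to 0.14 (Herpud1), -0.22 to 0.051 (Sdf2l1) and -0.064 to 0.53 (Calr) at 135 min, and -0.16 to 0 (Dnajc3), -0.50 to 0.66 (Sdf2l1), -0.011 to 0.17 (Pdia4) and -0.035 to 1.06 (Calr) at 45 min.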
